A study of Mus musculus with 2 samples.

Results

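The 89 genes described here encode the machinery with which RNA polymerase II starts and continues transcription: the subunits of the polymerase, the general initiation factors TFIIA to TFIIH, TBP and the TBP-associated factors (TAFs) of TFIID, the subunits of Mediator, and the elongation factors P-TEFb, DSIF and SPT6. They were chosen by gene symbol from the 21041 genes of the expression table. The symbol rule uses no expression value, but earlier results of these data were known when it was chosen. Matching by symbol also takes in some neighbours of the machinery. These are the antisense transcript *Med9os*, the 4 TAFs of the RNA polymerase I factor SL1 (*Taf1a*, *Taf1b*, *Taf1c* and *Taf1d*), and the TAF-like genes *Taf5l* and *Taf6l*, whose proteins belong to histone acetyltransferase complexes.

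The genes were measured by mRNA-seq in CD4+CD8+ double-positive (DP) thymocytes, the cells in which the rearranged T cell receptor is selected, with 1 library from wild-type (WT) mice and 1 from *Cxxc1*-deficient mice. By the study's methods the deficient mice were *Cxxc1* fl/fl carrying h*CD2*-Cre and the WT mice lacked Cre. The genotype label of the deficient sample reads *Cxxc1*+/-, so the library was placed by its title, and its column header reads KO DP. The human *CD2* elements drive Cre in early T cell precursors and in other lymphocytes as well, so deletion starts before the DP stage. The study's methods give an age of a few weeks for its mice in general, and whether the RNA came from 1 mouse or from pooled mice is not given in the sources used here. A single library per genotype allows no replicate check, and p-values are therefore not given. Every ratio compares these 2 libraries, not the 2 genotypes.

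*Cxxc1* itself stood at 91 in WT and at 50 in the deficient library, a ratio of 0.549 (95% counting interval 0.338 to 0.877), where the median ratio of all genes with a mean of 50 to 100 was 0.691. The value of 50 lies just under the 90th percentile of olfactory receptor genes in that library (50.9), used below as a background reference. The ratio was near that of genes of its level, so the values show neither expression above background nor the loss that the title states. By PCR and western blot the paper reports nearly no *Cxxc1* mRNA and a loss of the protein in DP cells of its deficient mice. The floxed allele removes only some exons, reads from the others can remain, and a value per gene therefore does not check the label. The library is called deficient here by its title and column header, and every direction given rests on these. The paper's own RNA-seq comparison has *Cd8a* lower in the deficient cells. With the columns placed as here, *Cd8a* was at 3503 in WT and 507 in the deficient library, the same direction. The unit of the deposited values is not named. The low values lie on steps that scale with transcript length, so that 1 read on a kilobase is worth 4.06 in WT and 4.70 in the deficient library, and the 2 libraries then hold approximately 1266917 and 655246 reads on genes. The median gene was at 36 in both libraries, but the values of the *Cxxc1*-deficient library sum to only 0.633 of the WT sum. The 10 markers of DP thymocytes were present in both libraries, at 79 to 20778 in WT and 44 to 5058 in the deficient library. All 10 were lower, and their sum went from 43022 to 11769, with *Rag1* alone from 20778 to 5058. That is a larger difference than that of the genes described here, but all markers except *Ptcra* have a mean of 100 or more. At that level 95.2% of all genes were lower, and the summed values of all genes had a ratio of 0.437. The part of the marker difference in the results was not tested. Markers of other cells summed to nearly equal, low levels in WT and *Cxxc1*-deficient cells, with 68 and 58 for 3 B cell genes, 44 and 38 for 3 erythroid genes, 65 and 65 for 3 macrophage genes and 79 and 74 for 4 thymic stroma genes. Among them *Hba-a1* was at 0 in both libraries and *Krt8* at 4 and 0. The libraries also differ in Y-linked expression, with 0 of 15 listed Y-chromosome genes above 0 in the WT library and 7 in the deficient one, and its part in the results was not tested. In a bulk library, fewer cells of a type and less RNA per cell cannot be told apart.

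RNA polymerase II makes all messenger RNA. TBP, carried to promoters within TFIID or other complexes, and the factors TFIIA, TFIIB, TFIIE, TFIIF and TFIIH place the polymerase at the start site and open the DNA, Mediator relays the signal of enhancer-bound activators to it, and P-TEFb releases it from its pause near the promoter. These genes are used by every cell and most have promoters rich in CpG dinucleotides. Cxxc1 binds unmethylated CpG through its CXXC zinc finger and belongs to the SET1 complexes that methylate lysine 4 of histone H3 at such promoters.

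The promoters of 3 genes show windows with many and with few CpG: *Polr2a*, which encodes the catalytic subunit and was higher in the deficient library, *Med6*, whose value was lowest relative to WT among members with a mean of at least 50, and *Gtf2h4*, the initiation factor with the lowest ratio, whose window is poor in CpG. Each window runs from 250 bases before to 50 bases after the RefSeq start on build GRCm38.p6 and is printed 5′ to 3′ on the strand of the gene, with CG in capitals. The *Polr2a* window (chr11:69758584-69758883, minus strand) holds 30 CpG, that of *Med6* (chr12:81594959-81595258, minus strand) 28 and that of *Gtf2h4* (chr17:35673694-35673993, minus strand) 8. The ratio of *Gtf2h4* (0.243) is close to those of *Gtf2f1* (0.244) and *Gtf2h2* (0.246), whose windows hold 24 and 25 CpG.
Polr2a: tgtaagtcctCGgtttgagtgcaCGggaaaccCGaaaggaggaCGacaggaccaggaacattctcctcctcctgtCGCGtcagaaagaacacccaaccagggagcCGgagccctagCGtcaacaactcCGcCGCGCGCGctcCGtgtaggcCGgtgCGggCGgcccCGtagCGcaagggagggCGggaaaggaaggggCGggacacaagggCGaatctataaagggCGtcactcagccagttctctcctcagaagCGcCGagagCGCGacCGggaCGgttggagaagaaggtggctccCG
Med6: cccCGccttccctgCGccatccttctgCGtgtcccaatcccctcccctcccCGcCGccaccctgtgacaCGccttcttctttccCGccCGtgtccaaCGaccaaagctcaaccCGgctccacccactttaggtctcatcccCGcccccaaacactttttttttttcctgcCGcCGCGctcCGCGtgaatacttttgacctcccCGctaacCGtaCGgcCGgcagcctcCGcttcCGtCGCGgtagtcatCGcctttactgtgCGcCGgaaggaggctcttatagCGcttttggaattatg
Gtf2h4: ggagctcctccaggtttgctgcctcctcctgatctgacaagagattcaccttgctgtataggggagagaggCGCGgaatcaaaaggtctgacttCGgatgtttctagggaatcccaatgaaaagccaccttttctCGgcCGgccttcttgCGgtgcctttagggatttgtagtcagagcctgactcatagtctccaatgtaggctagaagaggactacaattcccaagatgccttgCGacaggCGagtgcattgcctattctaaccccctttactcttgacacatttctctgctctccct

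RefSeq windows were found for 76 of the 89 genes. Their 91 windows held a median of 22 CpG (quartiles 15.5 and 30.5, range 3 to 61), against a median of 7 over 32851 windows of all genes and 23 over the 2523 windows of genes with a mean value of at least 100. The letters TATAAA on either strand occurred in 12 of the 91 windows (13.2%), in 13.6% of all windows and in 6.3% of those of the more highly expressed genes. CpG content was close in members that differed more and less between the libraries: the 28 windows of members at least 2-fold lower had a median of 22 CpG and the other 63 windows a median of 23.

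As deposited, most of the transcription machinery was lower in the *Cxxc1*-deficient library. Of the 87 genes above 0 in at least 1 library, 80 were lower, 6 were higher and *Med23* was equal, where 60.0% of all such genes were lower. At least 2-fold lower were 26 of the 87 genes (29.9%), against 17.4% of all genes, and 3 were at least 2-fold higher, against 5.89% of all genes. Among the 84 genes above 0 in both libraries these counts were 24 and 2. The median log2 ratio of *Cxxc1*-deficient over WT was -0.68 for the 87 genes and -0.20 for all genes. The summed values of the 89 genes in the deficient library were 0.553 of those in WT.

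**Figure D1:**
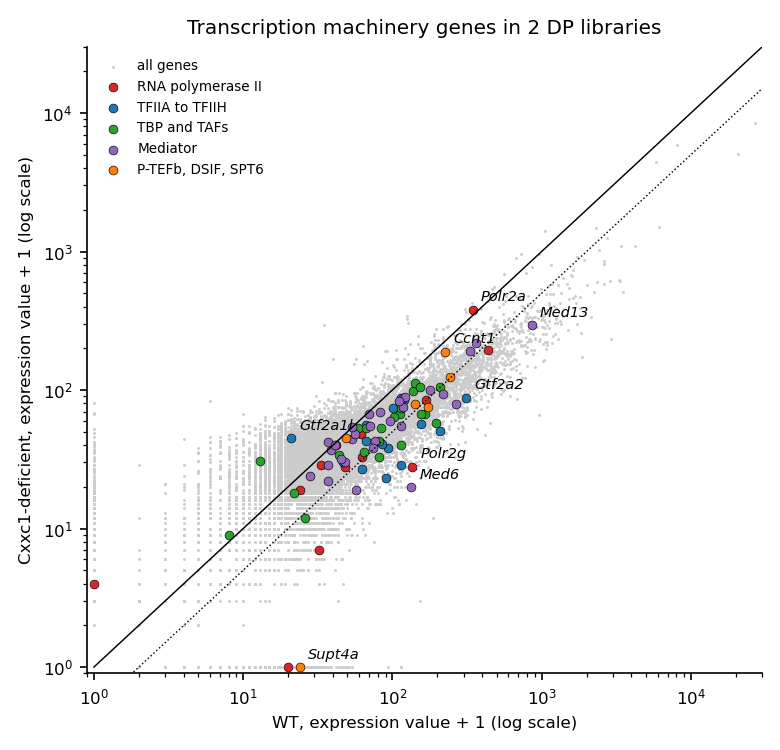
Expression values of each gene in WT (x axis) and *Cxxc1*-deficient DP thymocytes (y axis), with 1 added, on log scales. Grey points are all genes and coloured points the 89 genes by role, the solid line marks equal values and the dotted line a 2-fold lower value in the deficient library. Most coloured points lie between the lines or under the dotted one, with *Polr2a* (344 and 379) above the solid line.

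The share of lower genes depends on how high a gene is expressed, in the whole table as among the members. Among genes with a mean of the 2 values under 50, 24 of 29 members were lower (47.8% of all genes of that level) and 6 were at least 2-fold lower (9.75%). Between 50 and 100, 29 of 30 members were lower (82.6% of all genes) and 9 at least 2-fold lower (20.0%). At 100 or more, 27 of 28 members were lower (95.2% of all genes) and 11 at least 2-fold lower (56.8%). The median log2 ratio of the members was -0.36, -0.68 and -0.91 in the 3 ranges, where that of all genes was 0.00, -0.53 and -1.08. Applied to the levels of the 87 members, the shares of all genes give 65.3 lower and 24.8 at least 2-fold lower genes, so the 26 members past 2-fold are near the background of genes of their level. Highly expressed members differed somewhat less between the libraries than other genes of their level, and members of low value somewhat more. These differences were not tested.

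**Figure D2:**
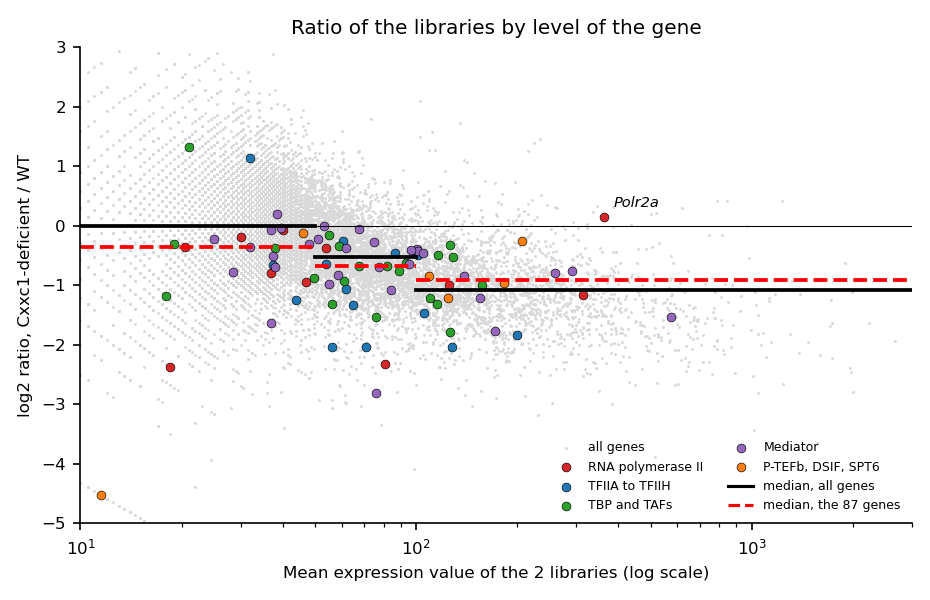
Log2 ratio of *Cxxc1*-deficient over WT (y axis) against the mean value of the 2 libraries on a log scale (x axis, from 10, which leaves out *Polr2c*, *Polr2k* and *Taf9*), for all genes (grey) and the members (coloured by role). Solid lines are medians of all genes and dashed lines medians of the members in the ranges under 50, 50 to 100 and 100 or more, and the dashed line lies under the solid one in the first 2 ranges and above it in the last (-0.91 against -1.08).

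The scale of the libraries decides the direction. If the *Cxxc1*-deficient values are multiplied by 2, so that genes at a mean of 100 or more have the same median in both libraries, 26 of the 87 members are lower and 61 higher, the median log2 ratio is 0.32 and that of all genes 0.79. With equal sums of values (a factor of 1.58), 46 are lower and 41 higher, with a median of -0.02 against 0.46 for all genes. A single factor moves the members and all genes alike, and "lower" is used here for values as deposited.

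Reads that match more than 1 place were dropped, which can lower the value of a gene with repeated sequence. At least 10% of the 50-base stretches of the transcript occur elsewhere in the genome for 14 members, led by *Polr2k* (65.8%), *Supt4a* (59.7%) and *Taf9* (57.8%). The median value of these 14 genes was 33.5 in WT and 14.5 in the deficient library, against 100.5 and 54 for the others. Of these, *Taf10* (11.6%) was listed at 0 in both libraries, *Polr2c* (17.2%) at 0 in WT and 3 in the deficient library, *Polr2k* at 19 and 0 and *Supt4a* at 23 and 0, although every cell needs their proteins. Other genes with more repeated sequence than *Taf10* were well above 0, such as *Taf1d* (22.7%) at 113 and 73, and the part of repeats in the zeros was not tested. The latter 3 rest on approximately 0 and 2, 3 and 0, and 4 and 0 reads, so no fold is given. A further limit is overlap, since the strand of a read was not recorded: 16 members share at least 10% of their exon bases with another gene, among them *Med10* (96.3%) and *Polr2b* (81.6%). *Taf10* shares 45.9% with *Ilk* on the opposite strand, and the part of this overlap in its zeros was not tested.

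**Figure D3:**
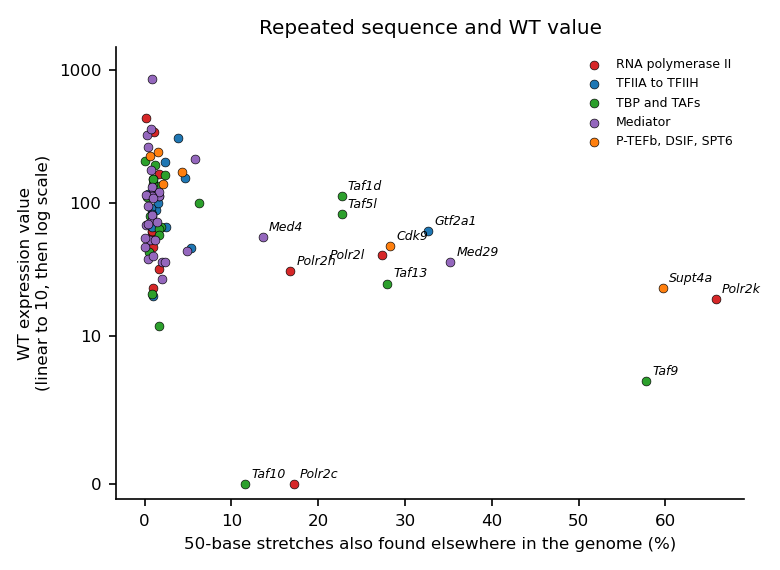
WT expression value (y axis, linear to 10, then log scale) against the percentage of 50-base stretches of the transcript that also occur elsewhere in the genome (x axis), 1 point per member, coloured by role. The 14 labelled genes with at least 10% reach no higher than 113 (*Taf1d*), and those beyond 50% lie at 23 or under.

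As a reference for levels near the background, olfactory receptor genes, which thymocytes have no known use for, had a median of 22 in WT and 24 in the deficient library. Above these medians were 81 members in WT and 74 in the deficient library, and 6 members were at or under them in both. Above the 90th percentile of the olfactory receptor genes (46.9 in WT and 50.9 in the deficient library) were 66 members in WT and 43 in the deficient library, and 23 were at or under it in both.

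Among the subunits of the polymerase with a mean of at least 50, only *Polr2a* was not lower. *Polr2a* (chromosome 11, 69547499 to 69572139 on mm9) encodes RPB1, which holds the active site and the carboxy-terminal repeat domain, and was at 344 in WT and 379 in the deficient library, a ratio of 1.10 (95% interval 0.977 to 1.24, on approximately 572 and 543 reads). It was the fourth highest member in WT and the highest in the deficient library. Among all 2472 genes at a mean of 100 or more, 79 (3.2%) had a ratio at least as high. It was the only 1 of the 28 members of that level whose value was not lower, where 119 of the 2472 genes were equal or higher. Its interval spans 1.

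Of the 11 other subunits, 10 were lower and *Polr2c* was higher. The share of all genes that were lower was 47.8% under a mean of 50, 82.6% at 50 to 100 and 95.2% at 100 or more. *Polr2b*, which encodes RPB2, the partner of RPB1 at the active site, stood at 167 in WT and 84 in the deficient library. *Polr2g*, which encodes RPB7 of the stalk that clamps the polymerase shut and binds the new RNA, stood at 135 and 27, 5-fold lower (95% interval 1.91 to 16.5, on approximately 29 and 5 reads). Its stalk partner *Polr2d* stood at 61 and 47.

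Within each library the balance of the subunit transcripts can be read without any scaling between libraries. *Polr2a* was 2.06 times *Polr2b* in WT and 4.51 times in the deficient library, a change of 2.19-fold (95% interval 1.62 to 2.99). *Polr2a* over *Polr2g* went from 2.55 to 14.0, a change of 5.51-fold (2.08 to 18.3). The transcript of the largest subunit thus took a larger share of the subunit transcripts in the *Cxxc1*-deficient library.

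*Polr2i* (RPB9, a proofreading subunit) stood at 47 in WT and 27 in the deficient library and *Polr2j* (RPB11, which pairs with the *Polr2c* product in assembly) at 62 and 32. The 5 subunits shared with RNA polymerases I and III were all lower, with *Polr2e* at 32 and 28, *Polr2f* at 23 and 18, *Polr2h* at 31 and 6 and *Polr2l* at 41 and 39 beside *Polr2k* above. All 5 were at 41 or under in both libraries, where a gene has few reads, and their intervals span 1. *Polr2m*, whose locus gives the polymerase-associated protein GDOWN1, had the highest WT value of the group, with 436 in WT and 194 in the deficient library (2.25-fold lower, 1.75 to 2.88).

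**Figure D4:**
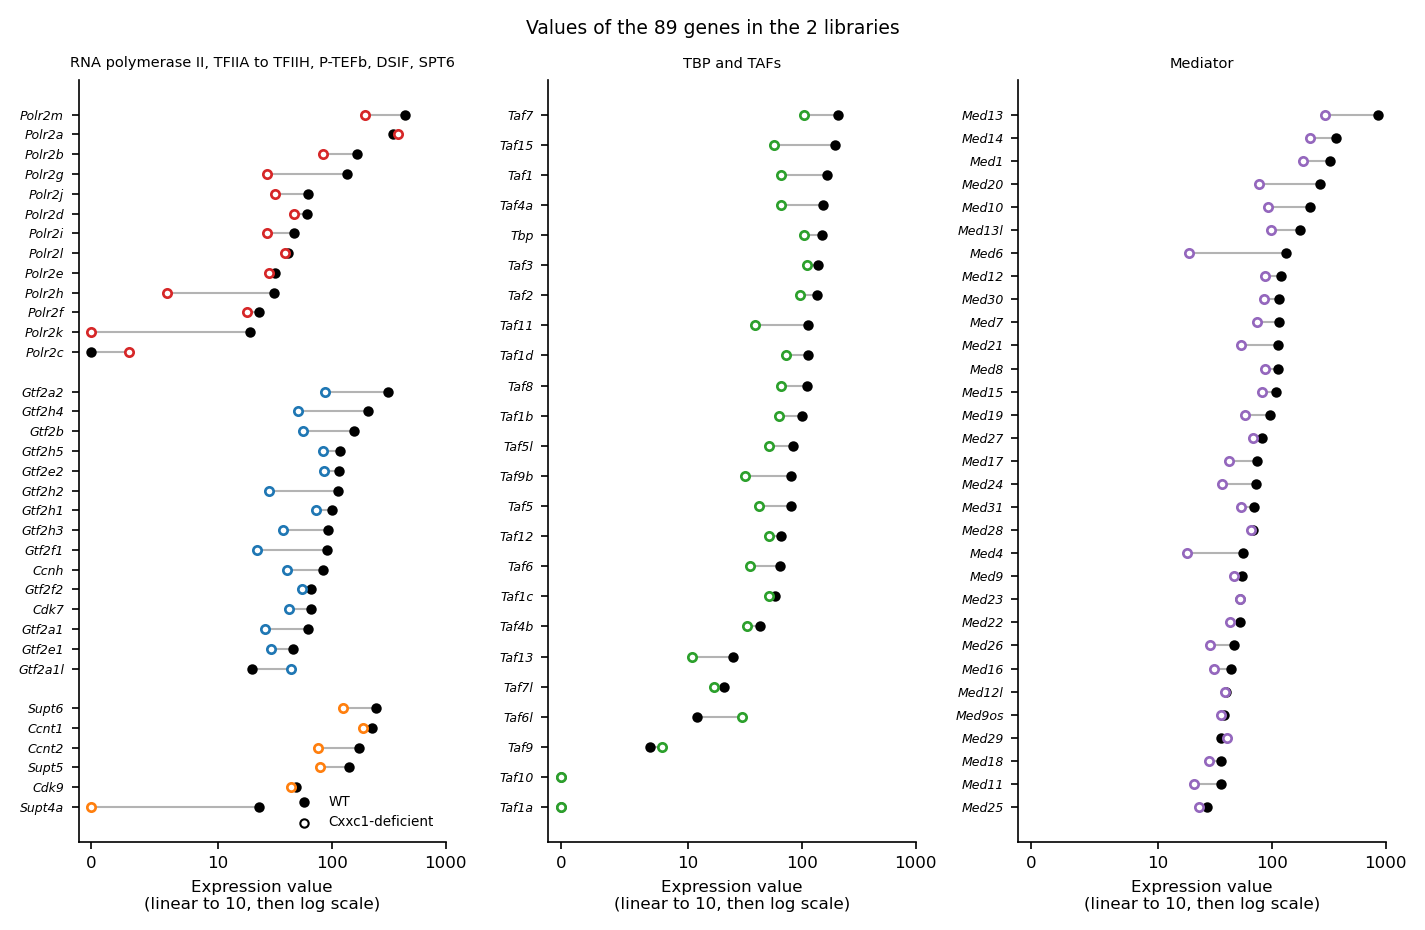
Values of the 89 genes in the WT (filled) and *Cxxc1*-deficient library (open), on an axis that is linear to 10 and logarithmic above, in order of the WT value within each role. The open circle lies left of the filled one in 80 genes, and in *Polr2a*, *Polr2c*, *Gtf2a1l*, *Taf6l*, *Taf9* and *Med29* it lies to the right.

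The general initiation factors were lower as a group, with 14 of 15 lower, 8 at least 2-fold lower and a median log2 ratio of -1.07. At the levels of these 15 genes the shares of all genes give 12 lower and 4.5 at least 2-fold lower. TFIIA steadies TBP on the promoter. Its small subunit gene *Gtf2a2* had the highest WT value of the initiation factors, with 312 in WT and 87 in the deficient library (3.59-fold lower, 2.14 to 6.86), and its large subunit gene *Gtf2a1* stood at 62 and 26. The paralogue *Gtf2a1l*, known from germ cells, stood at 20 and 44 (approximately 8 and 15 reads, ratio 2.20, 0.866 to 5.92). Both values lie under the 90th percentile of olfactory receptor genes (46.9 in WT and 50.9 in the deficient library). Of 1081 olfactory receptor genes above 0, 217 were at least 2-fold higher and 158 at least 2-fold lower.

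*Gtf2b* encodes TFIIB, the bridge between TBP and the polymerase, and stood at 155 in WT and 56 in the deficient library. TFIIF escorts the polymerase to the promoter, and its 2 subunit genes differed. *Gtf2f1* stood at 90 in WT and 22 in the deficient library, while *Gtf2f2* stood at 66 and 55 (1.2-fold lower, 0.627 to 2.41). *Gtf2f2* over *Gtf2f1* accordingly went from 0.733 to 2.50, a change of 3.41-fold with a wide interval (1.14 to 10.4). The genes of TFIIE, which brings in TFIIH, stood at 46 and 29 (*Gtf2e1*) and at 115 and 85 (*Gtf2e2*), and their relative level differed little (1.17-fold, 0.530 to 2.61).

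TFIIH opens the promoter DNA, repairs damaged DNA and carries the kinase that phosphorylates the polymerase tail. All 7 of its member genes were lower and 4 at least 2-fold lower, with a median log2 ratio of -1.07. All have a mean of at least 50. Of all genes, 82.6% at a mean of 50 to 100 and 95.2% at 100 or more were lower, and 20.0% and 56.8% at least 2-fold lower. The core subunit gene *Gtf2h4* (chromosome 17, 35804675 to 35810684 on mm9) stood at 206 in WT and 50 in the deficient library, 4.12-fold lower (2.38 to 7.31, on approximately 80 and 17 reads). This was the largest difference of the initiation factors, nearly tied with *Gtf2f1* (4.09-fold) and *Gtf2h2* (4.07-fold). *Gtf2h2* stood at 114 and 28 and *Gtf2h3* at 93 and 37.

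The remaining core genes differed less. *Gtf2h1* stood at 100 in WT and 73 in the deficient library and *Gtf2h5* at 118 and 84. *Gtf2h1* over *Gtf2h4* changed 3.01-fold between the libraries (1.44 to 6.23), so the subunits of the core did not keep 1 ratio. The kinase *Cdk7* stood at 66 and 42 (1.57-fold lower), and its cyclin *Ccnh* at 84 and 40. For *Cdk7* the interval of the ratio lies under 1 with the annotated transcript of 7595 bases (0.466 to 0.862) and spans 1 with that of 1595 bases (0.301 to 1.241). *Ccnh* lay just past the 2-fold limit, together with *Med21* (114 and 54), while *Taf7* (209 and 105) and *Polr2b* lay just short of it.

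TBP and the TAFs of TFIID proper showed the same direction in 16 of the 17 such genes above 0 and at least 2-fold lower values in 6, where the shares of all genes of their levels give 13.2 and 5.5. *Tbp*, the TATA-binding protein, stood at 152 in WT and 105 in the deficient library (1.45-fold lower, 0.989 to 2.13), and 19.3% of its exon bases are shared with its neighbour *Pdcd2*. *Taf1*, the largest subunit and the scaffold of TFIID, stood at 165 and 66. *Taf7*, which binds TAF1, had the highest WT value of the TAFs and was 1.99-fold lower (1.47 to 2.69).

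*Taf15*, an RNA-binding protein that joins part of TFIID, showed the largest difference of the group, with 196 in WT and 57 in the deficient library (3.44-fold lower, 2.21 to 5.58). *Taf11* stood at 113 and 39 and *Taf4a* at 154 and 66. *Taf2*, which contacts the start site, stood at 136 and 97, and *Taf3*, whose finger domain binds histone H3 methylated at lysine 4, at 140 and 112. *Taf3* over *Taf1* changed 2-fold between the libraries (1.44 to 2.80).

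The paralogue pairs were uneven. *Taf4b* stood at 43 in WT and 33 in the deficient library, so that its level relative to *Taf4a* changed 1.79-fold (1.03 to 3.04). *Taf9b* stood at 80 and 32, whereas its paralogue *Taf9*, most of whose sequence is repeated elsewhere, stood at 7 and 8. *Taf7l*, a germ cell paralogue of *Taf7*, was at the level of the background in both libraries, with 21 and 17. The remaining TAFs stood at 112 and 66 for *Taf8*, 80 and 42 for *Taf5*, 64 and 35 for *Taf6*, 66 and 52 for *Taf12* and 25 and 11 for *Taf13*.

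The TAFs of RNA polymerase I stood at 101 and 63 (*Taf1b*), 58 and 52 (*Taf1c*, 1.12-fold lower, 0.697 to 1.75) and 113 and 73 (*Taf1d*), so that all 3 were lower and 0 were 2-fold lower. Of all genes at their level, a mean of 50 to 100, 82.6% were lower and 20.0% at least 2-fold lower. *Taf1a* was listed at 0 in both libraries. Of the TAF-like genes, *Taf5l* stood at 83 and 52, and *Taf6l* at 12 and 30, a ratio of 2.50 on approximately 6 and 12 reads (0.806 to 7.53).

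Of the 31 Mediator genes 29 were lower and 6 at least 2-fold lower, with a median log2 ratio of -0.51, where the shares of all genes of their levels give 23.3 and 8.5. Without *Med9os*, an antisense transcript at 38 in WT and 36 in the deficient library, 28 of 30 were lower with a median of -0.58. The kinase module, which sits on Mediator reversibly and restrains its contact with the polymerase, held the highest member of all in WT. *Med13* (chromosome 11, 86080535 to 86171104 on mm9), the link between module and core, stood at 856 and 294, 2.91-fold lower (2.67 to 3.18, on approximately 2226 and 659 reads).

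The other genes of the kinase module differed less. *Med12*, which activates the kinase, stood at 121 in WT and 88 in the deficient library, the paralogue *Med13l* at 178 and 99, and *Med12l* at 40 and 39. Relative to *Med13*, *Med12* changed 2.12-fold (1.65 to 2.70) and *Med13l* 1.62-fold (1.33 to 1.97). *Med13* has the most reads of the members, and the interval of its ratio is the narrowest.

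The head of Mediator, which meets the polymerase and TFIIB, was lower in 8 of 8 genes and at least 2-fold lower in 2. Its genes have means from under 50 to over 100. Of all genes, 47.8% under 50, 82.6% at 50 to 100 and 95.2% at 100 or more were lower. At least 2-fold lower were 9.75%, 20.0% and 56.8%. *Med6* (chromosome 12, 82674544 to 82695995 on mm9) stood at 133 in WT and 19 in the deficient library, 7-fold lower (2.70 to 29.2, on approximately 35 and 4 reads). Of the 3657 genes with a mean of 50 to 100, 14 (0.38%) had a ratio at least as low. *Med20* stood at 266 and 78 and *Med17*, the central subunit of the head, at 75 and 42.

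The remaining head genes stood at 96 and 59 (*Med19*), 114 and 87 (*Med8*), 53 and 43 (*Med22*), 36 and 28 (*Med18*) and 36 and 21 (*Med11*). In the head, *Med6* and *Med20* were thus the genes past 2-fold.

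The middle was lower in 8 of 8 genes and at least 2-fold lower in 3, beside the shares of all genes by level given for the head. *Med1*, which nuclear receptors bind, stood at 328 in WT and 190 in the deficient library. *Med10* stood at 216 and 93, *Med21* as above, and *Med4* at 56 and 18. *Med26*, which docks the super elongation complex, stood at 47 and 29, and *Med7*, *Med9* and *Med31* at 116 and 74, 55 and 47, and 70 and 54. *Med14*, the scaffold that joins head, middle and tail, stood at 365 and 216.

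In the tail, where activators bind, and at its junction with the head, 7 of 9 genes were lower and 0 at least 2-fold lower. These counts also stand beside the shares of all genes by level given for the head. *Med23* was at 53 in both libraries (ratio 1.00, 0.686 to 1.45), *Med25* at 27 and 23, *Med16* at 44 and 31, *Med15* at 110 and 83 and *Med24*, just short of the 2-fold limit, at 73 and 37. At the junction *Med27* stood at 82 and 68, *Med28* at 69 and 66, *Med29* at 36 and 41 and *Med30* at 116 and 86.

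All 6 elongation factors were lower, with a median log2 ratio of -0.91. Except for *Supt4a* and *Cdk9* they have a mean of 100 or more, where 95.2% of all genes were lower and 56.8% at least 2-fold lower. Under 50 these shares were 47.8% and 9.75%. Past 2-fold were *Ccnt2* and, on approximately 4 and 0 reads, *Supt4a*. *Supt6* encodes SPT6, a histone chaperone that travels with the polymerase, and had the highest WT value, with 242 in WT and 124 in the deficient library (1.95-fold lower, 1.63 to 2.35). *Supt5*, the large subunit of DSIF, which first holds and then helps the polymerase, stood at 141 and 78 (1.81-fold lower, 1.32 to 2.52). *Supt6* over *Supt5* was nearly the same in both libraries (0.926-fold, 0.640 to 1.36).

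P-TEFb is the kinase *Cdk9* with 1 of 2 cyclins. *Cdk9* stood at 48 in WT and 44 in the deficient library (1.09-fold lower, 0.563 to 2.32), with 28.3% of its sequence repeated elsewhere. *Ccnt1*, the cyclin of most P-TEFb, stood at 226 and 188 (1.2-fold lower, 0.903 to 1.60) and *Ccnt2* at 173 and 75 (2.31-fold lower, 1.85 to 2.92). *Ccnt1* was 1.31 times *Ccnt2* in WT and 2.51 times in the deficient library, a change of 1.92-fold (1.33 to 2.79), so the 2 cyclins did not keep their ratio.

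In all, 37 of the 87 genes had an interval of the ratio wholly under 1, against 20.9% of 18349 genes with a length and a read, and 0 had one wholly above 1, against 2.13%. By mean value these were 2 of 29 members under 50, 15 of 30 at 50 to 100 and 20 of 28 at 100 or more. Of all genes with a length and a read they were 444 of 12626, 1354 of 3380 and 2045 of 2343, so the call depends on level. The count of 37 rests on the transcript length taken for each gene. It is 23 with the shortest annotated transcripts, with which the intervals of *Polr2b*, *Med1* and *Gtf2h2* among others span 1. It is 41 with the longest, with which the ratio intervals of *Tbp* (0.596 to 0.803) and *Ccnt1* (0.715 to 0.97) lie under 1. The intervals cover counting error only. Of the 12 pairs of members whose ratio was followed within the libraries, 9 had an interval apart from 1, and these pairs were chosen after their values were seen.

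**Figure D5:**
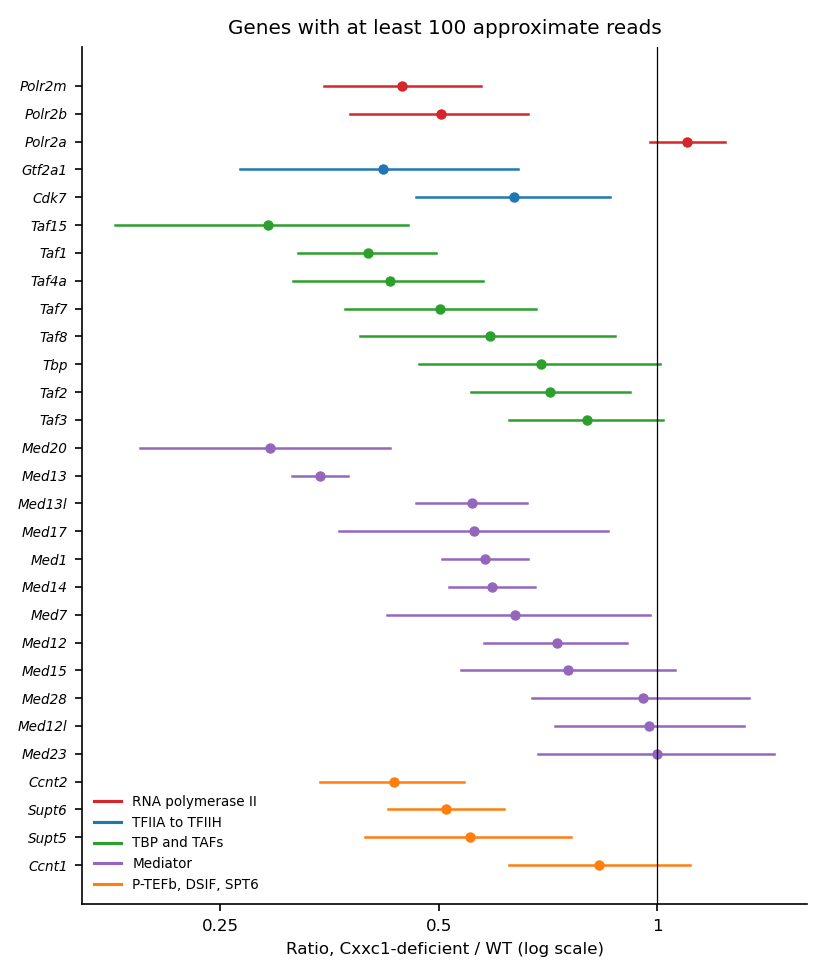
Ratio of *Cxxc1*-deficient over WT on a log scale (x axis) with 95% counting intervals for the 29 members with at least 100 approximate reads in the 2 libraries together, coloured by role. Points left of the line at 1 were lower in the deficient library, and 21 intervals lie wholly under 1 while 8 span it, among them those of *Polr2a* (1.10) and *Med23* (1.00). For comparison by mean value, 2045 of 2343 genes at 100 or more had an interval wholly under 1, and 20 of the 28 members of that level.

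The 51 partners of the polymerase outside the named families had the same direction, with 46 lower, 17 at least 2-fold lower, 0 at least 2-fold higher and a median log2 ratio of -0.85. The shares of all genes of their levels give 39.9 lower and 17.5 at least 2-fold lower, near the counts of the partners. The 6 genes of the PAF1 complex, which follows the elongating polymerase, were all lower and 4 at least 2-fold lower (5.5 and 2.7 at the shares of all genes of their levels), such as *Paf1* at 166 and 43 and *Rtf1* at 296 and 118. Of the termination factors, *Xrn2*, the exonuclease that degrades the RNA behind the polymerase, stood at 254 and 99 and *Pcf11* at 470 and 181. Of 9 genes for passage through chromatin 8 were lower and 6 at least 2-fold, among them *Supt16*, a subunit of the histone chaperone FACT, at 383 and 122. They hold genes of all 3 ranges of mean value. At 100 or more, as for *Supt16*, 95.2% of all genes were lower and 56.8% at least 2-fold lower, and under 50 the shares were 47.8% and 9.75%.

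Of the 9 super elongation genes 8 were lower and 0 at least 2-fold, and of the 9 genes of pausing and P-TEFb control 7 were lower and 1 at least 2-fold, with *Hexim1*, an inhibitor of P-TEFb, at 110 in WT and 71 in the deficient library, and *Larp7*, which holds P-TEFb in its inactive complex, at 99 and 40. Of 9 genes for kinases and phosphatases of the polymerase tail 8 were lower and 1 at least 2-fold, with *Cdk12* at 362 and 170 and its cyclin *Ccnk* at 106 and 111. The 6 remaining genes of TFIIH and the Mediator kinase were all lower, 2 of them at least 2-fold, with *Cdk19* at 308 and 108 and *Ercc3*, the TFIIH helicase, at 88 and 48. Each of these lists holds genes with means under 50, of 50 to 100 and of 100 or more. In these ranges 47.8%, 82.6% and 95.2% of all genes were lower, and 9.75%, 20.0% and 56.8% at least 2-fold lower. The part of level in the differences between the lists was not tested.

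The subunits particular to RNA polymerases I and III were lower in 12 of 15 genes and at least 2-fold lower in 5, with a median log2 ratio of -0.39, where the shares of all genes of their levels give 10.2 and 3.0. *Polr1c* and *Polr1d*, which both polymerases share, stood at 99 and 25 and at 151 and 55. The largest subunits stood close between the libraries, with *Polr1a* at 38 and 29 and *Polr3a* at 51 and 50.

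The 5 members on the X chromosome (*Taf1*, *Taf7l*, *Taf9b*, *Med12* and *Med14*) were all lower, as were 75 of 82 on the autosomes, so the direction was the same with the X chromosome left out.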

How the data were processed

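mRNA-seq was analysed for 2 samples of DP thymocytes, 1 WT and 1 *Cxxc1*-deficient, grouped by their titles. The authors prepared unstranded NEBNext mRNA libraries, sequenced reads of 50 bp on a HiSeq, mapped them to mm9 and, from the reads with a single match, computed values per gene in the Partek Genomic Suite. The submitters' processing notes name CASAVA 1.8.2 and Bowtie 1.0.1. The gene annotation is not given in the sources used here. Their unit is not named, and each deposited value is treated as a score that was normalized and rounded to whole numbers. The table holds no other columns of samples.

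Ratios are *Cxxc1*-deficient over WT, each value raised to at least 1. The value of 1 read was estimated from genes of 1 annotated length under 1100 bases (GENCODE vM1), of which 80.4% (1843 genes, WT) and 80.2% (1859 genes, *Cxxc1*-deficient) lay within 0.15 reads of a whole read. Approximate reads used the median length among the transcripts with the longest coding sequence, and 88 of the 89 members had a length, 5 of them under another name. Intervals are 95% Clopper-Pearson intervals of these reads and cover counting error only. Reads are not independent molecules without molecular identifiers, and the lengths are an estimate. Overlaps and repeated 50-base stretches were computed from the same annotation and genome, and promoters were taken from RefSeq tables.

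The members and lists were chosen with earlier results of these data known. Ratios with intervals were planned for *Polr2a*, *Tbp*, *Cdk7*, *Cdk9*, *Supt5*, members at least 2-fold higher and, in each role, the gene of highest WT value, of largest fall and of largest rise with a mean of at least 50. The other intervals and the pairs were chosen after their values were seen, as were equal sums, other transcript lengths and the removal of repeated or shared sequence among the alternatives. Alternatives were other scalings, subtraction of the olfactory receptor median, a pseudocount of 10, filters and other thresholds. Some items of the lists are not reported here. The scripts were tested on simulated data. Computation used scipy 1.17.1, pandas 2.3.3 and numpy 2.4.6 under Python 3.11.15, with matplotlib 3.10.9 for plots.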

Additional observations from a re-analysis of the deposited data

How the results depend on the processing

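As deposited, 80 of 87 members were lower, of which 26 at least 2-fold, and 3 were higher by 2-fold or more, with a median log2 ratio of -0.68. Scaled to the same 75th percentile (a factor of 1.31), 15 were at least 2-fold lower and the median was -0.29. With the same sum without the 100 highest genes (1.48), 49 were lower and 12 at least 2-fold lower, with a median of -0.12. With the same sum of values (1.58), 46 were lower and 11 at least 2-fold lower, with a median of -0.02. With the same median of genes at a mean of 100 or more (2), 26 were lower, 8 at least 2-fold lower and 6 higher by 2-fold or more, the median turned to 0.32 and the ratio of *Supt5* to 1.10. The median of all genes moved to 0.19, 0.36, 0.46 and 0.79 under these 4 scalings. The ratio of *Polr2a* was 1.44, 1.63, 1.74 and 2.20. With the olfactory receptor median subtracted, 48 were at least 2-fold lower and the median was -1.14. With a pseudocount of 10, or for members with a mean of 50 or more, 0 were at least 2-fold higher. Without members of repeated or shared sequence, 16 of 61 were at least 2-fold lower. At limits of 1.5-fold and 3-fold, 49 and 12 were lower. On the higher side only *Polr2c* reached 3-fold, at exactly 3 with its WT value of 0 raised to 1. With the shortest annotated transcript of each gene, 23 members in place of 37 had an interval under 1, and with the longest 41.

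No paired analysis was possible because only 1 library was made per genotype, and no replicate was left out. Depth limits the shared polymerase subunits and other members under 50, of which 2 of 29 had an interval under 1.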
